A study of Drosophila erecta with 23 samples.

Results

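Sh, Shal, Shaw, eag, slo, sei and cac encode voltage-gated potassium and calcium channels, and they were followed through embryogenesis of *Drosophila erecta*. They were chosen as a named list, by their *D. melanogaster* gene identifiers, and all 7 were present among the 8948 genes of the gene table. The identifiers are FBgn0003380 (Sh), FBgn0005564 (Shal), FBgn0003386 (Shaw), FBgn0000535 (eag), FBgn0003429 (slo), FBgn0003353 (sei) and FBgn0263111 (cac).

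Voltage-gated potassium channels open when the membrane is depolarised, and the outward current repolarises the cell and sets how a neuron or muscle fires. Voltage-gated calcium channels open at the same signal and let in the calcium that triggers release of neurotransmitter. In the fly, excitability appears late in embryogenesis, once neurons have sent out axons and formed synapses on muscles. The roles given below are known from *D. melanogaster*.

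RAMPAGE, which sequences the 5′ ends of capped cDNAs and so counts transcripts at their start sites, had been applied to whole embryos of the wild-type reference genome strain. Embryos were laid in population cages in windows of 1 h and aged, from 0-1 h to 22-23 h after egg laying. This gave 23 samples, 1 at each age with no replicate, which carried different barcodes and were pooled and made into a single library. The labels tell them apart by age alone and name no treatment, allele or transgene.

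Levels are in RPM, the reads of a gene relative to the total of its sample. That total was smallest at 7-8 h (142925 reads), largest at 0-1 h (13984136) and 3427860 in the median sample. The 7-8 h sample is thus too shallow for these genes, since each read there adds 7.00 RPM. By the upper limit of its interval, a count of 0 there allows up to 26.9 RPM, against 2.95 RPM at 6-7 h. Intervals are 95% Wilson intervals of the read count. They cover counting error only, since no source used here says whether PCR copies of a cDNA were collapsed. Since reads are counted at the 5′ end of a cDNA and not along its length, RPM can be compared between genes without a length correction. In whole embryos, fewer cells of a type and less RNA per cell cannot be told apart, nor can RNA laid down by the mother and RNA made by the embryo.

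The 7 genes fell into several kinds of profile. Leaving aside the 4-6 h samples and the shallow 7-8 h one, Sh, Shal, slo and cac were below 5 RPM until 11 h. From 13-14 h on they lay between 8.98 RPM (slo at 13-14 h) and 54.4 RPM (slo at 18-19 h). Shaw was low throughout and appeared mainly after 13 h. The sei gene was read at every age and rose from the first hours to 8-11 h, and eag was highest in the first hours. Summed over the 7 genes, the level started at 28.5 RPM, stood at 35.7 RPM at 2-3 h and 45.3 RPM at 4-5 h, and was 14.6 RPM at 6-7 h. It reached 185 RPM at 18-19 h and ended at 164 RPM.

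**Figure D1:**
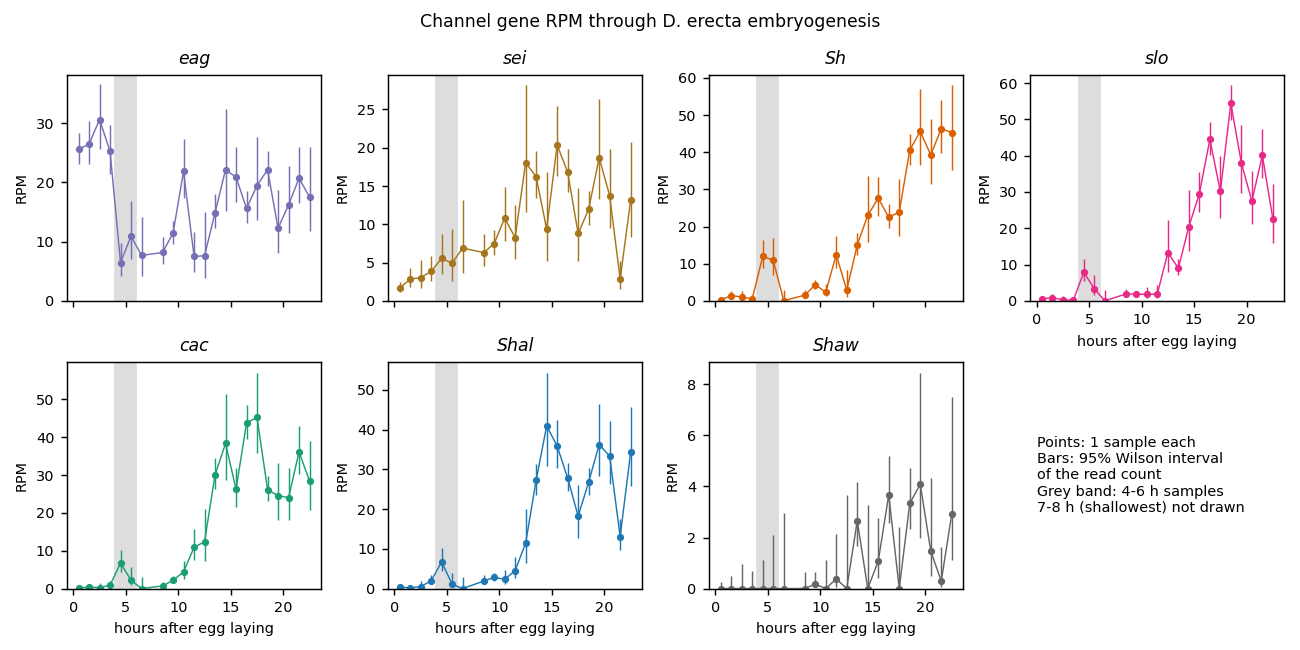
RPM of each channel gene (vertical axis, a scale of its own in each panel) against hours after egg laying (horizontal axis), with 1 point per sample and bars for the 95% Wilson interval of the read count. The 7-8 h sample is not drawn and the grey band marks 4-6 h. Sh, slo, cac and Shal climb from under 5 RPM at 8-11 h to between 13.1 and 46.3 RPM at 20-23 h, whereas eag starts at 25.6 RPM.

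Sh, the founding member of the Shaker family and the pore subunit of a fast inactivating potassium current, was listed with 1404 reads in all. Its level over the 23 samples ran from 0 (6-7 h and 7-8 h) to 46.3 RPM at 21-22 h (interval 39.7 to 54.0), with a median of 12.0 RPM. It was 0.215, 1.41 and 1.01 RPM in the 3 samples of 0-3 h, 1.53, 4.31 and 2.33 RPM in those of 8-11 h, and 39.3, 46.3 and 45.3 RPM in those of 20-23 h. All 3 late samples lay above all others of those windows. The mean of the last 3 was 43.6 RPM ± 3.81 (SD over 3 ages, n = 3), which is 16.0 times the mean of 8-11 h (2.72 RPM). From 18-19 h on, the intervals of all 5 samples overlapped that of the highest, so no order among them can be read.

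Shal, which carries an inactivating potassium current in the cell bodies and dendrites of neurons, was listed with 1223 reads. Its level ran from 0 to 40.9 RPM at 14-15 h (interval 30.9 to 54.3), with a median of 6.72 RPM. In the 0-3 h samples it was 0.429, 0.129 and 0.507 RPM, in those of 8-11 h 1.87, 2.81 and 2.33 RPM, and in those of 20-23 h 33.4, 13.1 and 34.3 RPM. The late values lay above the mid ones without overlap, at 11.5 times their mean, but the 21-22 h sample stood well below both of its neighbours. Intervals of 6 other samples between 13-14 h and 22-23 h overlapped that of the highest.

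Shaw, a relative whose channel depends only weakly on voltage, was the lowest of the 7. Its 102 reads came from 10 samples, and 13 samples held none. The highest value, 4.09 RPM at 19-20 h, rests on 7 reads (interval 1.98 to 8.45). The 3 samples of 0-3 h held no Shaw read, those of 8-11 h held 0, 2 and 0 reads, and those of 20-23 h held 3, 1 and 4. The largest counts, 31 reads each, were at 16-17 h (3.67 RPM) and 18-19 h (3.34 RPM).

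In eag, which gave the ether-a-go-go family of potassium channels its name, the highest RPM values were among the first ones. Its 1888 reads were the most of the 7 genes, though 358 of them came from 0-1 h, the deepest sample. It was 25.6, 26.5 and 30.6 RPM in the samples of 0-3 h (the last with an interval of 25.6 to 36.6), 8.17, 11.4 and 21.9 RPM in those of 8-11 h, and 16.2, 20.7 and 17.5 RPM in those of 20-23 h. At 3-4 h it still stood at 25.3 RPM and at 4-5 h at 6.43 RPM, and it had no read only at 7-8 h. The early mean (27.6 RPM ± 2.69, SD over 3 ages, n = 3) was 1.99 times the mid one, with no overlap, whereas the mid and late samples overlapped. Intervals of 9 other samples overlapped that of the highest, at 0-1 h, 1-2 h and 3-4 h but also at 10-11 h, 14-15 h, 15-16 h, 17-18 h, 21-22 h and 22-23 h. Scaled by the TMM factors of edgeR, the highest eag value was that of the sample starting at 21 h.

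A relative of eag, sei is named for mutants that are paralysed by seizures at high temperature and encodes a potassium channel of the ERG kind. It was read in every sample, with 870 reads in all. The 0-3 h samples had 1.64, 2.83 and 3.04 RPM, those of 8-11 h 6.30, 7.47 and 10.8 RPM, and those of 20-23 h 13.7, 2.84 and 13.1 RPM. The early values lay below the mid ones, and the late ones overlapped the mid ones because of the 21-22 h sample, with 10 sei reads. The highest level was 20.4 RPM at 15-16 h (interval 16.3 to 25.5), and the intervals of 7 others overlapped it. The value of 14.0 RPM at 7-8 h is 2 reads.

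The slo gene encodes a potassium channel opened by both voltage and calcium, which ends bursts of activity in neurons and muscle. Its level ran from 0 to 54.4 RPM at 18-19 h (interval 49.9 to 59.4, 506 reads), the highest value of any of the 7 genes, with a median of 7.89 RPM. No other sample had an interval overlapping that one. The values were 0.501, 0.9002 and 0.253 RPM at 0-3 h, 1.87, 1.85 and 1.75 RPM at 8-11 h, and 27.5, 40.1 and 22.6 RPM at 20-23 h. The late mean was 16.5 times the mid mean, without overlap.

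The calcium channel gene cac, cacophony, encodes the pore subunit of the channel that admits calcium at presynaptic terminals. Its level ran from 0 to 45.2 RPM at 17-18 h (interval 35.9 to 57.0, overlapped by those of 4 others), with a median of 10.9 RPM. It was 0.143, 0.386 and 0.253 RPM at 0-3 h, 0.681, 2.20 and 4.38 RPM at 8-11 h, and 24.05, 36.1 and 28.5 RPM at 20-23 h. The late mean was 12.2 times the mid mean and the groups did not overlap. The rising genes came on close together, cac and Shal staying at or above 10% of their highest level from 11-12 h on, slo from 12-13 h and Sh from 13-14 h. No order can be read from these hours. Sh had 12.4 RPM at 11-12 h and only 3 reads at 12-13 h (2.85 RPM, interval 0.971 to 8.39), and with a running mean over 3 ages its onset was at 10 h, like that of cac.

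By their means over 20-23 h the order was Sh (43.6 RPM), slo (30.1), cac (29.5), Shal (26.9), eag (18.2), sei (9.91) and Shaw (1.56). Sh lay above the ranges of cac and Shal but not that of slo, and the ranges of slo, cac and Shal overlapped each other. The range of eag overlapped that of Shal, lay above that of sei, and the ranges of sei and Shaw overlapped slightly. The composition of the channel reads changed with age. At 0-3 h eag held 685 of the 790 reads of the 7 genes (86.7%, interval 84.2% to 88.9%) and Sh 2.28%. At 8-11 h eag held 41.3% and sei 25.9% of 613 reads. At 20-23 h eag held 11.8% of 1103 reads, and Sh (27.7%), slo (20.7%), cac (19.5%) and Shal (14.6%) held most of the rest. These pooled shares lean on 21-22 h, which gave 561 of the 1103 reads. Shal held 21.5% at 20-21 h and 20.9% at 22-23 h, above both slo (17.7% and 13.8%) and cac (15.5% and 17.3%) though mostly within counting error, and 8.20% at 21-22 h.

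**Figure D2:**
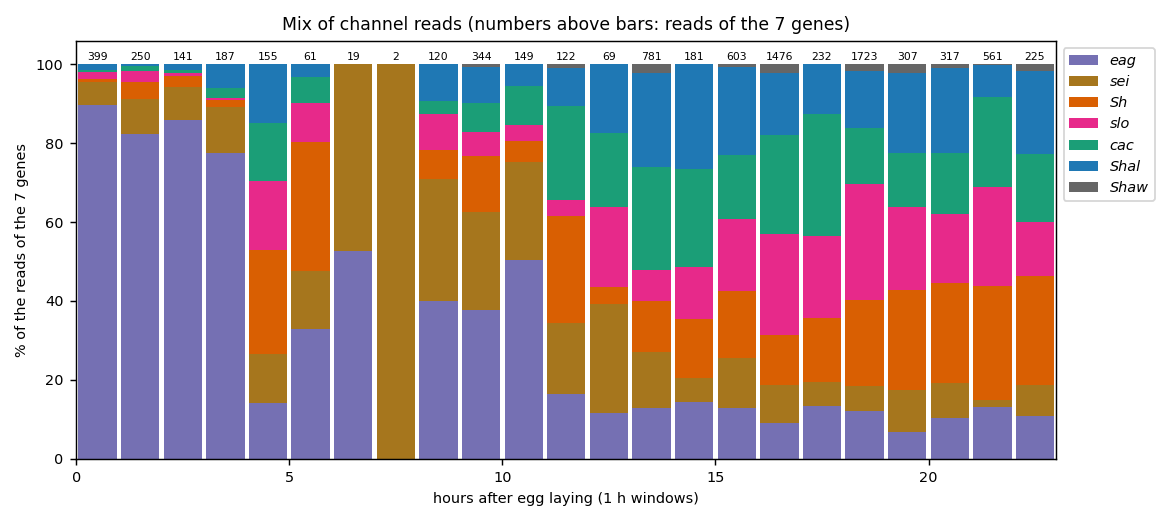
Share of each gene (vertical axis, percent) among the reads of the 7 genes in each 1 h sample (horizontal axis, hours after egg laying), with the number of those reads above each bar. The bar of 7-8 h rests on 2 reads. The share of eag is 89.7% at 0-1 h and 10.7% at 22-23 h.

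Change over time was tested with limma on log2(RPM + 1), a scale that understates changes of low genes, with a smooth curve over the 23 ages whose scatter served as the error. All 7 genes changed at an adjusted p under 0.05, in a series where 89.4% of the 8367 genes tested did. The fitted range between the lowest and the highest age was 4.97 for slo (adjusted p = 1.68e-08), 4.82 for cac (2.58e-08), 4.68 for Sh (2.09e-06) and 4.49 for Shal (1.16e-07). It was 2.70 for eag (adjusted p = 0.0166), 2.48 for sei (0.000376) and 1.51 for Shaw (0.00340). The median of the 7 genes was 4.49, beside 2.78 over all genes tested. The range of eag has its low point at 7-8 h, where the shallowest sample held no eag read, and was 1.79 without that sample. With a pseudocount of 0.1 RPM the call for eag was lost (adjusted p = 0.0735). The edgeR quasi-likelihood test on the recovered reads called 7 of 7 (80.6% of all genes), as did DESeq2 (83.2%).

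Between 8-11 h and 20-23 h, 5 of the 7 genes rose and none fell, where 20.3% of all genes rose and 51.1% fell. The fitted differences were 3.45 ± 0.63 (SE) for Sh (adjusted p = 3.55e-05), 3.41 ± 0.50 for slo (2.42e-06), 2.68 ± 0.52 for cac (7.61e-05), 2.66 ± 0.54 for Shal (0.000117) and 1.32 ± 0.41 for Shaw (0.00583). That of Shaw rests on 2 and 8 reads and depends on the pseudocount. For eag the difference was 1.10 ± 0.53 (adjusted p = 0.0645) and for sei -0.09 ± 0.38 (0.831), so neither passed. The eag samples themselves differed less, the mean of 20-23 h being 1.31 times that of 8-11 h, with overlap. The fitted curve of eag is lowest at 7-8 h, where the shallowest sample held no eag read. Leaving out 1 age at a time gave eag differences of 0.75 to 1.39. The eag difference passed without 0-1 h (1.22), 3-4 h (1.17), 5-6 h (1.19) or 10-11 h (1.39), and that of sei was 0.44 without 21-22 h (adjusted p = 0.284). In the samples themselves, the same 5 genes had all late values above all mid ones, a pattern that 19.9% of genes showed, and none of the 7 had the reverse (50.0%). For Shaw this rests on 1 read at 21-22 h (0.284 RPM, interval 0.050 to 1.61) against 2 reads at 9-10 h (0.176 RPM, interval 0.048 to 0.641), and the intervals overlap.

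These differences depend on the scaling, because the median gene was lower by 0.95 on the log2 scale at 20-23 h under RPM and by none under the TMM factors of edgeR (0.00). Relative to the median gene, the differences were 4.40 for Sh, 4.36 for slo, 3.63 for cac, 3.61 for Shal, 2.27 for Shaw, 2.05 for eag and 0.85 for sei. Under TMM factors eag (2.14, adjusted p = 0.000951) and sei (0.97, adjusted p = 0.0291) also rose, and 30.5% of all genes rose and 24.1% fell.

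**Figure D3:**
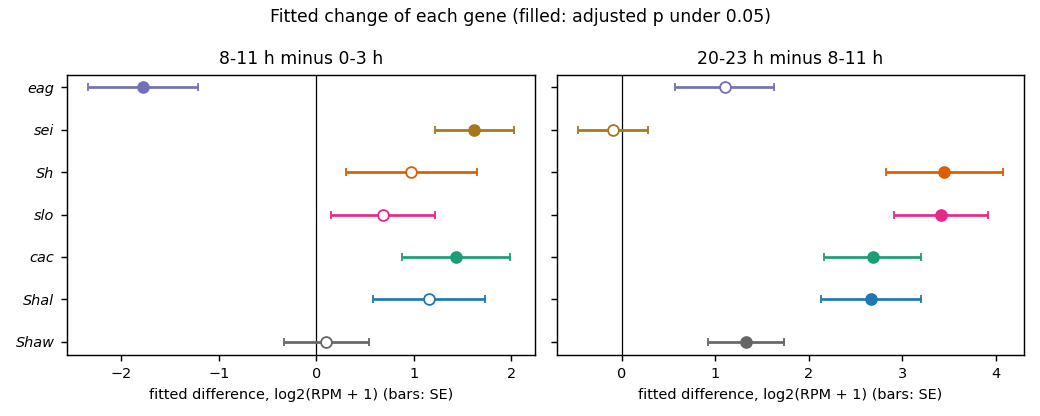
Fitted differences of each gene on the log2(RPM + 1) scale (horizontal axis) from 0-3 h to 8-11 h (left) and from 8-11 h to 20-23 h (right), with bars for the standard error and filled points for an adjusted p under 0.05. On the right Sh and slo lie at 3.45 and 3.41, and sei lies at -0.09.

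From 0-3 h to 8-11 h the fitted level of eag fell by 1.78 ± 0.56 (adjusted p = 0.0169), where 16.1% of all genes fell, and that of sei rose by 1.62 ± 0.40 (adjusted p = 0.00306), where 16.3% rose. The call for eag was lost with a pseudocount of 0.1 RPM (adjusted p = 0.0775). In the samples themselves the early mean of eag was 1.99 times the mid one. That is a smaller fall than the fitted one, whose curve is lowest at 7-8 h. For cac the difference was 1.44 ± 0.56 (adjusted p = 0.0498), and the call was lost without any 1 of 18 samples (1.02 to 1.46). It was 1.16 for Shal (adjusted p = 0.128), 0.98 for Sh (0.291), 0.68 for slo (0.363) and 0.11 for Shaw (0.887), and none of these passed. Without a fit, 5 of the 7 genes had all 3 mid values above all 3 early ones (23.2% of all genes) and only eag the opposite (21.2%). For Sh, Shal, slo and cac this rests on few reads in the early samples, from 6 for cac to 18 for Sh. For sei there were 57.

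The 4-5 h and 5-6 h samples stood apart for the late genes. Sh was 12.0 RPM at 4-5 h and 10.9 RPM at 5-6 h, between 0.523 RPM at 3-4 h and no read at 6-7 h. At 4-5 h, Sh stood at 27.5%, slo at 26.2%, Shal at 25.0% and cac at 22.8% of its own mean level of 20-23 h, and at 5-6 h at 25.1%, 10.9%, 4.06% and 7.40%. A set of 328 other genes that are high at 20-23 h and nearly absent at 6-7 h and 8-11 h was chosen after seeing the data. None of the 7 genes met its rule. The set had medians of 19.0% at 4-5 h and 11.3% at 5-6 h, beside 0.950% at 3-4 h. Its median of 0% at 6-7 h follows from the choice of the set. Whether reads or embryos of later ages entered these barcoded and pooled samples was not tested, so their values need not be levels of 4-6 h embryos. Without both samples, all 7 genes were still called as changing over time (89.1% of all genes). The same 5 rose from 8-11 h to 20-23 h (21.0% of all genes), and eag passed as well (1.22, adjusted p = 0.0482).

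Promoters are called here TSS clusters (TSCs), groups of neighbouring start sites. Positions are 1-based on the scaffolds of FlyBase release 1.3 of the *D. erecta* genome. The gene table does not name the TSCs of a gene, so they were matched as clusters on 1 strand of 1 scaffold whose reads add up to those of the gene in every sample. For cac and sei the sums were exact, and for the other 5 they held 94.9% to 98.4% of the reads. The best set elsewhere in the genome reached 40.2% to 76.9%. Single promoters of Sh are less firmly matched than the set, which held 97.5%, because another set reached 92.3% without A, 91.0% without C, 89.9% without D, 85.6% without B and 73.9% without E. Shal (scaffold 4784, 19374475 to 19374513, minus strand), Shaw (scaffold 4929, 3761974 to 3761983, plus strand), eag (scaffold 4690, 12163155 to 12163258, minus strand) and cac (scaffold 4690, 3300314 to 3300426, plus strand) each had 1 promoter with at least 5% of the reads. No annotation of that release was used, so whether these clusters lie in an exon, an intron or a UTR is not given here.

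The remaining genes used several promoters, lettered from upstream to downstream. Sh had 5 on the minus strand of scaffold 4690, from A at 8284994 to 8285023 to E at 8186898 to 8186940, spread over 98083 bp. E held 41.4% of the Sh reads (interval 38.8% to 44.0%), B 17.0%, C 16.6%, A 13.7% and D 8.76%. In slo, A (scaffold 4820, 7570200 to 7570234, minus strand) held 66.7% and B (7564399 to 7564435), 5799 bp downstream, 31.7%. In sei, A (scaffold 4845, 21310377 to 21310434, plus strand) held 22.9% and B (21312115 to 21312193), 1738 bp downstream, 77.1%. All 13 promoters changed over time (limma, adjusted p under 0.05), where 87.4% of the 14966 TSCs tested did. Since they were matched to their genes by reads, this is not independent of the change of the genes. Only 3 of the 13 (Sh A, sei A and sei B) carry the name of a *D. erecta* gene among the TSCs. The others are clusters assigned to no gene there and rest on the read match alone.

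The sei gene changed promoter with age. Promoter A was 5.83, 5.13 and 5.58 RPM in the samples of 8-11 h and 0, 0.290 and 0.742 RPM in those of 20-23 h. Promoter B was 0.514, 2.39 and 5.29 RPM and then 14.0, 2.61 and 12.6 RPM. Promoter A thus had all late values below all mid ones, whereas those of B overlapped through the 21-22 h sample. A fall like that of A was common. Of all genes, 50.0% had all late values below all mid ones, and 47.8% of the TSCs tested with limma were called lower. Of the sei reads, A held 13 of 57 at 0-3 h (22.8%, interval 13.8% to 35.2%), 111 of 159 at 8-11 h (69.8%, 62.3% to 76.4%) and 2 of 56 at 20-23 h (3.57%, 0.985% to 12.1%). Within the mid window it held 34 of 37 reads at 8-9 h, 58 of 85 at 9-10 h and 19 of 37 at 10-11 h, and at 18-19 h it held 3 of 111. The overlapping mid and late levels of the whole gene are therefore the sum of a promoter that fell by 1.90 ± 0.46 on the log2 scale (adjusted p = 0.000799) and another at 0.98 ± 0.56 (adjusted p = 0.119).

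The balance of the 2 largest promoters was tested with limma on the log2 ratio of their reads, over 841 genes with such a pair. This test was added after seeing the data. For sei the ratio of B to A was higher by 4.59 ± 0.82 at 20-23 h than at 8-11 h (adjusted p = 6.52e-05). For Sh the ratio of E to B was higher by 2.75 ± 0.64 (adjusted p = 0.00138). B was the second promoter of Sh by only 239 reads against 233 for C, and the ratio of E to C was not tested. E and C held 21 and 5 reads at 8-11 h, and 144 and 39 at 20-23 h. For slo the ratio of A to B differed by 0.84 ± 0.91 (adjusted p = 0.516) and did not pass. So 2 of 3 pairs changed, where 34.0% of all pairs did (57.1% in the test over all ages). In Sh, B held 29 of 65 promoter reads at 8-11 h (44.6%, interval 33.2% to 56.7%) and 39 of 293 at 20-23 h (13.3%, 9.89% to 17.7%), and E held 32.3% and then 49.1%. The mid samples were unlike each other, B holding 0 of 9 Sh reads at 8-9 h, 23 of 49 at 9-10 h and 6 of 8 at 10-11 h, and E 6, 14 and 1. All 5 Sh promoters rose from mid to late, from 1.18 ± 0.43 for B (adjusted p = 0.0180) to 3.82 ± 0.50 for E (adjusted p = 5.14e-07), where 20.3% of TSCs rose and 47.8% fell. Both slo promoters rose, A by 3.42 ± 0.42 (adjusted p = 2.17e-07) and B by 2.35 ± 0.52 (adjusted p = 0.000364). A cluster was matched only if its reads did not exceed those of the gene in any sample. The rises of the Sh and slo promoters are therefore no evidence independent of the rise of their genes.

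**Figure D4:**
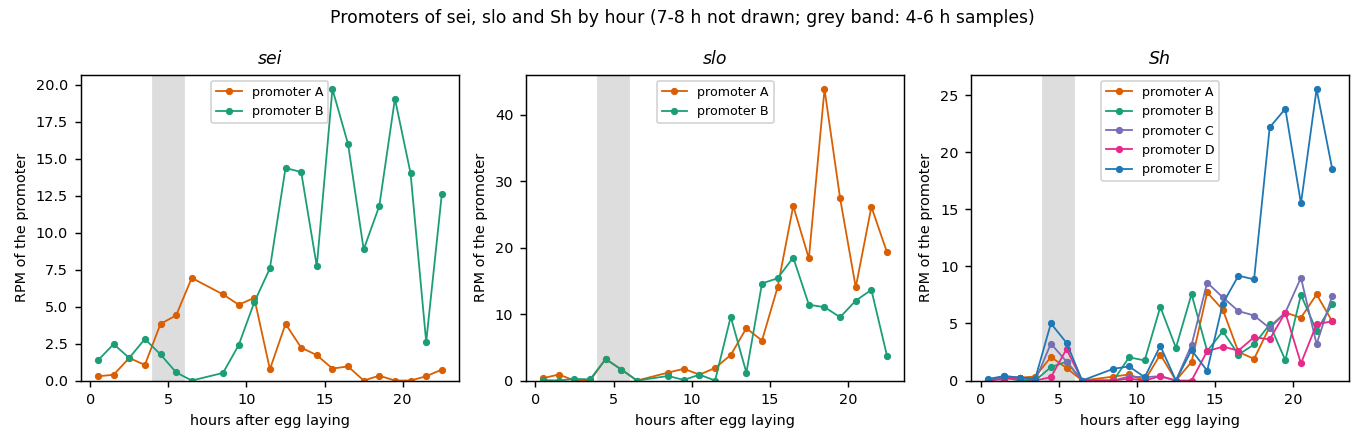
RPM of each promoter of sei, slo and Sh (vertical axis, relative to all reads in TSCs) against hours after egg laying (horizontal axis), with 1 point per sample. The 7-8 h sample is not drawn and the grey band marks 4-6 h. Promoter A of sei is above B at 8-9 h (5.83 against 0.514 RPM) and below it at 20-21 h (0 against 14.0 RPM).

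As a description of likeness, profiles were compared by Pearson's r of log2(RPM + 1) over the 23 ages, which follow each other in time and differ in depth. The pairs among Sh, Shal, slo and cac had r from 0.895 (Sh and Shal) to 0.957 (Shal and cac). The r of eag with the other 6 ran from -0.300 (sei) to 0.282 (Sh). Of the 8367 genes tested, 326 had r of at least 0.9 with cac, 312 with slo, 242 with Sh, 209 with Shal, 1 with eag and none with sei or Shaw. Most of the 7 had many other genes closer to them than their nearest fellow channel gene, which ranked 6 in likeness for Shal (cac), 49 for cac (Shal), 105 for slo (cac), 130 for Sh (slo), 155 for Shaw (Shal), 294 for sei (Shal) and 1883 for eag (Sh).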

How the data were processed

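RAMPAGE data of 23 ages of whole embryos were used, 1 barcoded sample per age and no replicate, from a single pooled library. The authors mapped read pairs with STAR (version not given in the sources used here) to FlyBase release 1.3, called TSCs on the pooled reads of the series and deposited RPM for genes (by *D. melanogaster* identifier) and for TSCs. The authors also deposited TSC positions with a score per TSC, of which only the positions were used, and an aligned gene table, which was not used. No sample column was left unused.

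Whole reads were recovered from 100% of the 185320 gene values and 379172 TSC values above 0 (tolerance of 0.02 reads). The deposited RPM was tested with limma 3.58.1 (trend) on log2(RPM + 1), using a spline curve (natural cubic, 4 df) across start hours, after filterByExpr of edgeR 4.0.16 (minimum count of 10), with Benjamini-Hochberg adjustment over all genes or TSCs. Contrasts are means of fitted values over 3 ages. DESeq2 1.42.0 and edgeR on recovered reads were alternatives. With 1 sample per age the p-values measure scatter around a smooth curve. Onset is the first hour from which RPM stays at or above 10% of the highest. The limma models of levels and of promoter ratios were tested on simulated data, and the edgeR and DESeq2 tests were not.

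TSCs were matched to a gene by read sums within 200000 bp, keeping those with at least 5% of its reads. This search was not tested on other genes. Apart from it, 5818 of 8948 genes (65.0%) equalled in every sample the summed reads of the TSCs named for 1 *D. erecta* gene. That shows gene values to be sums of TSC reads for those genes, and does not check the search. The pair test took genes of 500 reads or more with 10% or more of them in the second TSC, added 0.5 reads, and weighted each ratio by its counting variance plus 0.3.

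The members and lists were chosen with earlier results of these data known. All members are named. Other channel genes, cell type markers and the names of the most similar genes were not looked up, since the reference used here does not pair these identifiers with symbols, and no sequence is shown because no genome of this release was used. R 4.3.3, Python 3.11.15, numpy 2.4.6, pandas 2.3.3, scipy 1.17.1 and matplotlib 3.10.9 were used.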

Additional observations from a re-analysis of the deposited data

How the results depend on the processing

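Of 1181 alternative values of tested results, 1142 kept their side of the threshold and, where they have a direction, their direction. The values for change over time have no direction, so only their side could change. The fit without 7-8 h is counted 2 times, as a setting and among the fits that leave out 1 age. No paired analysis was possible because each age has 1 sample. A pseudocount of 0.1 RPM took eag below the threshold for change over time (fitted range 3.68; promoter of eag 3.55) and from 0-3 h to 8-11 h (-2.30), leaving 6 of 7 genes called (85.0% of all genes). At an adjusted p under 0.001, 5 of 7 were called (68.5% of all genes). From 0-3 h to 8-11 h, cac lost its call with a pseudocount of 0.1 (2.14) or 5 RPM (0.66), no filter (1.44), TMM factors (1.28) and splines of 3 (1.33) or 5 df (0.87). Leaving out 1 age at a time gave 1.02 to 1.85 for cac and -0.0058 to 0.17 for Shaw (negative without 13-14 h). From 8-11 h to 20-23 h, eag passed with a pseudocount of 5 RPM (0.73), TMM factors (2.14), a spline of 3 df (1.19) and without 4-6 h (1.22), and leaving out 1 age gave 0.75 to 1.39 for eag and -0.33 to 0.44 for sei. With TMM factors sei turned positive (0.97). The slo promoter ratio turned to -0.14 with a spline of 5 df. The cause of these changes was not tested.

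With a running mean over 3 ages, the highest level started at 22 h for Sh, 15 h for Shal, 1 h for eag, 17 h for slo and 16 h for cac, and onset at 10 h for Sh, 12 h for Shaw, 0 h for eag, 11 h for slo, 0 h for sei and 10 h for cac. With TMM factors the highest level was at 19 h for Shal, 21 h for eag, 19 h for sei and 21 h for cac, and onset at 12 h for Shal, 14 h for slo and 3 h for sei. Without 7-8 h, onset of eag was at 0 h. Depth limits the genes with few reads, Shaw above all, and the 7-8 h sample.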
